A study of Mus musculus with 8 samples.

Results

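The 10 mouse genes described here make the MHC class I presentation route: the light chain β2-microglobulin (B2m), the classical heavy chains H2-K1 and H2-D1, the non-classical heavy chains H2-T23, H2-M3 and H2-M2, the peptide transporter subunits Tap1 and Tap2, the loading factor tapasin (Tapbp) and the transactivator Nlrc5. They were taken by gene symbol from the platform annotation, with every probe that carries 1 of those symbols, which gave 15 probes of 25697 on the array and 10 of 16593 named genes. The cells were peritoneal macrophages of C57BL/6 mice. They came from mice lacking the Fcγ chain (FcgKO) or from WT mice, and were either given recombinant IFNγ at 10 ng/ml for 6 h or left unstimulated. The 4 groups were FcgKO with IFNγ, FcgKO unstimulated, WT with IFNγ and WT unstimulated, with 2 arrays each (Illumina MouseRef-8 v2.0 bead arrays, 8 in all). All 4 groups had adhered overnight in medium with 10% serum and 15% L929 supernatant, a source of M-CSF, after which non-adherent cells were discarded. The labels give neither the allele of the knockout nor its breeding, and call the samples duplicates without saying whether they came from separate animals, so the p-values measure the spread between these arrays only.

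MHC class I molecules show peptides from inside the cell to CD8 T cells and NK cells. The proteasome cuts proteins into peptides, the Tap1 and Tap2 transporter carries them into the endoplasmic reticulum, tapasin helps to fit them into the groove of a heavy chain, and the heavy chain travels to the surface bound to β2-microglobulin. IFNγ is a known inducer of this route: it acts in part through IRF1 and through Nlrc5, which has no DNA-binding domain of its own and is recruited to class I promoters by the factors bound to their X and Y boxes. The Fcγ chain, encoded by Fcer1g, is the signalling subunit shared by several activating Fc receptors.

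Promoter stretches are printed for 6 members with an X2 and a Y core, exact or 1 mismatch off each, 20 bases apart. These 6 genes moved by different amounts with IFNγ. RefSeq promoter windows (GRCm38.p6, 250 bases before to 50 after the transcription start) were matched by gene identifier for 8 of the 10 members. Tap2 and Nlrc5 were not matched. The X2 core was searched as TGACG and the Y core as ATTGG. In B2m, H2-K1, H2-D1 and H2-M3 both stood on the gene's strand with 20 bases between them. Inexact cores were then searched at that spacing only. The closest such pair in H2-T23 and in H2-M2 had 1 mismatch in each core, and inexact cores at other spacings were not examined. Stretches of 108 bases, 5′ to 3′ on the gene's strand, are given with 3 parts in capitals, which are the interferon-type match, the X2 core and the Y core, in that order.
B2m, chr2:122147539-122147646, plus strand: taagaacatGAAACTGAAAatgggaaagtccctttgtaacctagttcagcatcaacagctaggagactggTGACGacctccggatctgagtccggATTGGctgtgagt
H2-K1, chr17:34000351-34000458, minus strand: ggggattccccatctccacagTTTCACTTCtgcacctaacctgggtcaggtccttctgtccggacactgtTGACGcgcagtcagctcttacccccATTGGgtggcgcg
H2-D1, chr17:35262923-35263030, plus strand: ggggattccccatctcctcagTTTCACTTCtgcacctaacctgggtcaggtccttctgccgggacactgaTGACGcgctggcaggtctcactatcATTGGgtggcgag
H2-M3, chr17:37270118-37270225, plus strand: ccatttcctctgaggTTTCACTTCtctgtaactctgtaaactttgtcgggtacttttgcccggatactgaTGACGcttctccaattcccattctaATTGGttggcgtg
H2-T23, chr17:36032765-36032872, minus strand: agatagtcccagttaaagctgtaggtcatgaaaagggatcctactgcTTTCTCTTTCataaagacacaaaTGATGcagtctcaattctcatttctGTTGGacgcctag
H2-M2, chr17:37483611-37483718, minus strand: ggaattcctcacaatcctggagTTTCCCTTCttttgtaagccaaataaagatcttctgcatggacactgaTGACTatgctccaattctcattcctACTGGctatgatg

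Over 27025 promoter windows of the same length, 1 per gene, the exact pair with a 20-base spacer on the gene's strand occurred in 16 (0.0592%), and with up to 2 mismatches in all in 1809 (6.69%). The closest pair in Tap1 at that spacing had 2 mismatches, both in the Y core, and that in Tapbp had 3. The single cores are common, ATTGG in 37.9% and TGACG in 21% of windows on either strand. An interferon-stimulated response element, searched on both strands as GAAA, any 2 bases, GAAA, was found in B2m and H2-T23 and in 3.49% of windows. A second form, GAA, any 2 bases, GAAA, which is 1 base shorter and does not contain the first, was the match in H2-K1, H2-D1, H2-M3 and H2-M2 (7.56% of windows). The NF-kB-type letters GGG, any 5 bases, CC occurred in 50.4% of windows, and in H2-K1 and H2-D1 they fall within the first bases of the stretch shown, just ahead of the interferon-type match. The spacing and the second form were chosen after the sequences had been read. A match describes letters only, and no binding was measured.

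The labels were checked on the targeted gene. Fcer1g stood at 107 and 98.5 units of normalised intensity in FcgKO with IFNγ and at 95.7 and 95.6 in unstimulated FcgKO, against 16987 and 18350.2 in WT with IFNγ and 17567 and 18350.2 in unstimulated WT. The FcgKO values lie about the array median of 103, and the adjusted p for the difference was 2.3e-13 with IFNγ and 1.8e-13 unstimulated. Of 10 peritoneal macrophage markers, 8 had a named probe and all 8 were above the array median on all 8 arrays (no named probe for Csf1r and Cd68). Replicate arrays correlated with r between 0.996 and 0.997 over all probes. Throughout, intensities are linear and normalised, tests are limma's moderated test on background-corrected log2 values with Benjamini-Hochberg adjustment over all 25697 probes, and a probe was called at an adjusted p below 0.05. Intensities of different probes are not on a common scale and are compared only within a probe.

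IFNγ raised most of the class I route in FcgKO and in WT macrophages. With the brightest probe of each gene, 8 of the 10 members rose, H2-M2 fell and B2m was not called, in both genotypes. Nlrc5 and Tap1 rose most, followed by Tap2, H2-T23 and Tapbp, while H2-K1, H2-D1 and H2-M3 rose less. Over all 15 probes, 10 were called higher and 1 lower in each genotype. Of all probes on the array, 4.60% were called higher and 5.75% lower with IFNγ in FcgKO, and 4.97% higher and 6.56% lower in WT. The median log2 difference of the 10 brightest probes was 1.02 in FcgKO and 0.87 in WT, against -0.01 over all probes in each genotype. The members were chosen with earlier results of these data known, so these counts describe them and give no independent evidence.

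**Figure D1:**
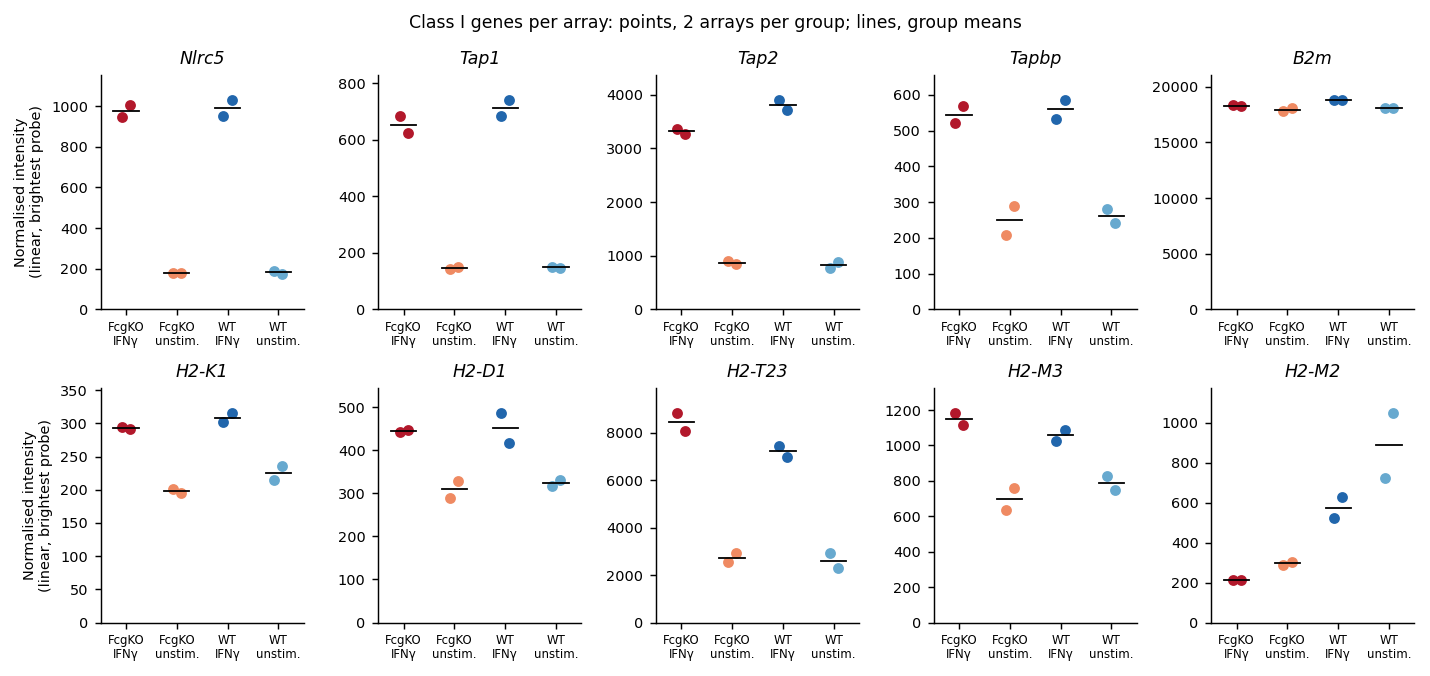
Normalised intensity (linear, brightest probe of each gene, axis from 0) of the 10 class I genes on each of the 8 arrays, with points for arrays and lines for group means. Nlrc5, Tap1 and Tap2 separate by IFNγ in both genotypes, B2m stays between 17797 and 18846 on every array, and H2-M2 separates by genotype.

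Nlrc5, the regulator, measured 949 and 1008 in FcgKO with IFNγ, against 178 and 179.7 in unstimulated FcgKO. WT arrays gave 953 and 1032 with IFNγ, against 190.3 and 175 unstimulated. The 4 IFNγ arrays lay far above the 4 unstimulated ones, and within each condition the genotypes overlapped. The log2 difference was 2.71 (SE 0.08, adjusted p = 1.1e-09) in FcgKO and 2.70 (SE 0.08, adjusted p = 1.4e-09) in WT. In deposited intensity, without background correction, these are 5.47-fold and 5.43-fold.

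The transporter subunits moved with it. Tap1 measured 684 and 624 in FcgKO with IFNγ, against 143.5 and 150.1 in unstimulated FcgKO, with a log2 difference of 2.47 (SE 0.08, adjusted p = 2.9e-09). The WT values were 684 and 742 with IFNγ, against 151.4 and 146.4 unstimulated (log2 2.58, SE 0.08, adjusted p = 2.2e-09). Tap1 was low on the 4 unstimulated arrays, at 143.5 to 151.4 against an array median of 103, and they stood well apart from the 4 IFNγ arrays. Tap2 measured 3370.3 and 3267 in FcgKO with IFNγ, against 904 and 838 in unstimulated FcgKO (log2 1.97, SE 0.08, adjusted p = 3.9e-08). The WT arrays gave 3910 and 3713 with IFNγ, against 762 and 879 unstimulated (log2 2.27, SE 0.08, adjusted p = 1.1e-08). The Tap2 intervals of the response were 1.79 to 2.16 in FcgKO and 2.08 to 2.45 in WT, and the test of their difference is given with the genotype comparison.

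Tapasin, which bridges the transporter and the empty heavy chain, had a pair of probes that moved alike. The first measured 520 and 568 in FcgKO with IFNγ, against 209 and 288 in unstimulated FcgKO. WT arrays had 532 and 587 with IFNγ, against 281 and 241 unstimulated. The second probe gave the tighter values, 554 and 535 against 234 and 258 in FcgKO and 568 and 555 against 244 and 237 in WT, IFNγ arrays before unstimulated ones. No IFNγ array of either probe overlapped an unstimulated one. The log2 differences were 1.28 (SE 0.15, adjusted p = 1.6e-04) and 1.27 (SE 0.07, adjusted p = 5.9e-07) in FcgKO, and 1.22 (SE 0.15, adjusted p = 2.1e-04) and 1.36 (SE 0.07, adjusted p = 3.2e-07) in WT.

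β2-microglobulin, the invariant partner of every class I heavy chain, was not called with any of its 3 probes. The brightest measured 18350.2 and 18244 in FcgKO with IFNγ, against 17797 and 18070.3 in unstimulated FcgKO. WT showed 18846 on both IFNγ arrays and 18070.3 on both unstimulated arrays. The IFNγ arrays were the higher ones in both genotypes, by a log2 difference of 0.03 (95% interval -0.11 to 0.17, adjusted p = 0.90) in FcgKO and 0.06 (-0.08 to 0.20, adjusted p = 0.73) in WT. The probe ranked 12 to 18 from the brightest on the arrays, whose scale ends at 22479, and identical values on different arrays come from a normalisation that gives the same value to the same rank. A rise is therefore bounded by the top of the scale, and how far that limits the response was not tested. The second probe, ranked 19 to 47, gave 0.05 (-0.13 to 0.22, adjusted p = 0.87) in FcgKO and 0.15 (-0.02 to 0.32, adjusted p = 0.34) in WT. The third lay under the array median on all 8 arrays, at 88 to 96.7.

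The classical heavy chains, which present peptides to CD8 T cells, rose modestly. H2-K1 measured 295 and 291 in FcgKO with IFNγ, against 200.7 and 194 in unstimulated FcgKO (log2 0.67, SE 0.07, adjusted p = 1.2e-04). The 4 WT arrays gave 301 and 316 with IFNγ, against 214 and 235 unstimulated (log2 0.53, SE 0.07, adjusted p = 6.1e-04). H2-D1 measured 443 and 446 in FcgKO with IFNγ, against 289.7 and 328 in unstimulated FcgKO (log2 0.58, SE 0.09, adjusted p = 0.0017). WT values were 486 and 417 with IFNγ, against 316 and 331 unstimulated (log2 0.53, SE 0.09, adjusted p = 0.0030). For both genes each IFNγ array lay above each unstimulated array of its genotype. A second H2-K1 probe stayed between 96.6 and 109.8, above the array median on 2 of 8 arrays, and was not called. Heavy chain genes are close copies of one another, the probe sequences were not used here, and cross-hybridisation between them was not tested.

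Among the non-classical chains, H2-T23 responded most. It encodes Qa-1, which shows leader peptides of other class I chains to NK cell receptors. Its first probe measured 8844 and 8062 in FcgKO with IFNγ, against 2544 and 2941 in unstimulated FcgKO (log2 1.64, SE 0.11, adjusted p = 2.3e-06). In WT it measured 7472 and 6989.6 with IFNγ, against 2916 and 2293 unstimulated (log2 1.50, SE 0.11, adjusted p = 4.6e-06). The second probe gave 1.47 (SE 0.12, adjusted p = 1.1e-05) in FcgKO and 1.65 (SE 0.12, adjusted p = 4.2e-06) in WT, so the order of the genotypes differed between the probes.

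H2-M3 encodes a chain that binds N-formylated peptides such as those of bacteria. It measured 1184 and 1113 in FcgKO with IFNγ, against 633 and 762 in unstimulated FcgKO (log2 0.76, SE 0.10, adjusted p = 3.2e-04). The WT values for H2-M3 were 1027 and 1088 with IFNγ, against 827 and 750.2 unstimulated (log2 0.44, SE 0.10, adjusted p = 0.011). The groups did not overlap in either genotype. The WT call was lost with a background offset of 16 (log2 0.46, adjusted p = 0.062), without WT unstimulated replicate 2 (0.37, adjusted p = 0.085) and without WT IFNγ replicate 2 (0.40, adjusted p = 0.10), with limma throughout.

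H2-M2, a non-classical chain gene, went the other way. It measured 215 and 214 in FcgKO with IFNγ, against 289 and 303 in unstimulated FcgKO (log2 -0.54, SE 0.15, adjusted p = 0.038). In WT it measured 524 and 628 with IFNγ, against 725 and 1050.1 unstimulated (log2 -0.64, SE 0.15, adjusted p = 0.015). Every IFNγ array was below every unstimulated array of its genotype, but the unstimulated WT pair differed from each other by more than the WT IFNγ pair. Without WT unstimulated replicate 2 the WT value was -0.36 (adjusted p = 0.083), a change of over 1.5 times, and without WT IFNγ replicate 1 it was -0.50 (adjusted p = 0.16). The FcgKO call was lost without each of the 4 FcgKO arrays in turn, at adjusted p = 0.14 and 0.20 for the unstimulated pair and 0.12 and 0.14 for the IFNγ pair, replicate 1 before 2, and without background correction (log2 -0.47, adjusted p = 0.12). The limma direction was negative in all these fits.

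**Figure D2:**
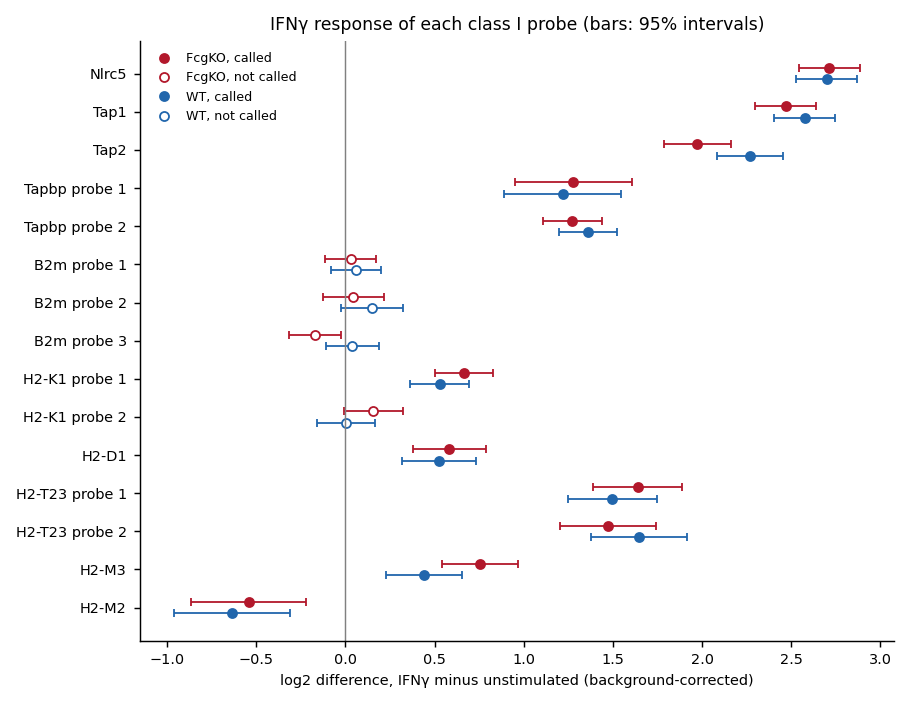
Log2 difference, IFNγ minus unstimulated, of each of the 15 class I probes in FcgKO (red) and WT (blue), with 95% intervals. Filled points are called. Nlrc5 and Tap1 lie at 2.47 to 2.71, the B2m probes near 0, and H2-M2 below 0 in both genotypes.

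Members with alike promoter letters covered a range of responses. The 4 promoters with the exact X2 and Y pair belong to B2m (log2 0.03 in FcgKO and 0.06 in WT), H2-K1 (0.67 and 0.53), H2-D1 (0.58 and 0.53) and H2-M3 (0.76 and 0.44). H2-T23, with 1 mismatch in each core, gave 1.64 and 1.50. H2-M2, also with 1 mismatch in each core, gave -0.54 and -0.64. Tap1, whose Y core at that spacing has 2 mismatches, gave 2.47 and 2.58. The longer interferon element stands in the promoters of B2m and H2-T23, of which only H2-T23 was called. The B2m probe lies near the top of the intensity scale, which bounds its rise, and how far this lowers its value was not tested. With 8 promoters, no relation was tested.

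Between FcgKO and WT, H2-M2 was lower and the other 9 members showed no called difference. With IFNγ, 1 of 15 member probes was called lower in FcgKO and 0 higher, against 1.47% lower and 1.13% higher of all probes. Unstimulated, again 1 was called lower and 0 higher, against 0.479% lower and 0.245% higher of all probes. The 1 probe was that of H2-M2 in both comparisons. The other 14 probes differed by log2 -0.20 (Tap2) to 0.23 (H2-T23 probe 1) with IFNγ and by -0.22 (H2-K1 probe 1) to 0.27 (H2-T23 probe 2) unstimulated, with lowest adjusted p-values of 0.37 and 0.38. Their 95% intervals reached at most from -0.39 up to 0.48 with IFNγ and from -0.43 up to 0.54 unstimulated, so differences of that size are not excluded by these arrays. At an unadjusted p below 0.05, 1 of the 14 differed with IFNγ and 3 unstimulated, against 2973 and 1993 of all 25697 probes.

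**Figure D3:**
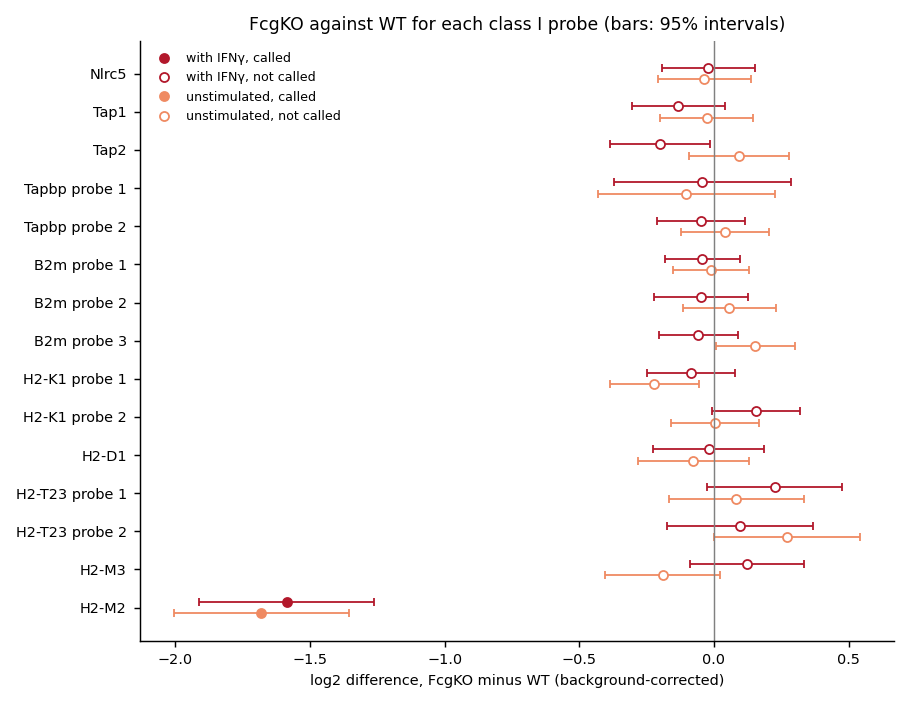
Log2 difference, FcgKO minus WT, of each of the 15 class I probes with IFNγ (dark red) and unstimulated (orange), with 95% intervals and filled points for called probes. H2-M2 lies at -1.59 and -1.68, and the other 14 probes between -0.22 and 0.27.

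For Nlrc5 the FcgKO minus WT difference was -0.02 with IFNγ (95% interval -0.19 to 0.15) and -0.04 unstimulated (-0.21 to 0.14). Tap2 was lower on both FcgKO arrays than on both WT arrays with IFNγ, by -0.20 (-0.39 to -0.02, adjusted p = 0.37), and overlapped unstimulated. H2-K1 probe 1 was lower on both FcgKO arrays in both conditions, by -0.09 (-0.25 to 0.08, adjusted p = 0.79) with IFNγ and -0.22 (-0.39 to -0.06, adjusted p = 0.38) unstimulated. H2-M3 was higher in FcgKO with IFNγ by 0.12 (-0.09 to 0.34, adjusted p = 0.75) and stood at -0.19 (-0.40 to 0.02, adjusted p = 0.71) unstimulated, where the arrays overlapped. None of these passed the limma threshold.

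The response to IFNγ itself was compared between the genotypes as a difference of differences. Of all 25697 probes, 11 were called (0.0428%), and 0 of the 15 class I probes. At an unadjusted p below 0.05 there were 3 of the 15, against 1756 of all 25697 probes. The lowest adjusted p of the 15 was 0.68. The FcgKO minus WT difference of the responses ran from -0.29 for Tap2 (95% interval -0.56 to -0.03) to 0.31 for H2-M3 (0.01 to 0.61). For Nlrc5 it was 0.01 (-0.23 to 0.26), for Tap1 -0.11 (-0.35 to 0.14) and for H2-M2 0.09 (-0.37 to 0.55). In simulated data with the same design, limma called 41 of 50 probes changed 1.5-fold and 9 of 50 changed 1.25-fold for a comparison of 2 groups. A difference of responses has the larger SE, 0.12 for Tap2 against 0.08 for either response. Its adjustment is also stricter, because few probes were called. No difference of responses was simulated, so the simulated shares do not carry over to it.

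H2-M2 was lower in FcgKO in both conditions. With IFNγ the values were 215 and 214 in FcgKO against 524 and 628 in WT (log2 -1.59, SE 0.15, 95% interval -1.91 to -1.26, adjusted p = 1.7e-04), which in deposited intensity is 2.67-fold lower. Unstimulated they were 289 and 303 in FcgKO against 725 and 1050.1 in WT (log2 -1.68, SE 0.15, interval -2.01 to -1.36, adjusted p = 2.6e-04), or 2.95-fold lower. All 4 FcgKO arrays lay below all 4 WT arrays. The order of the groups was FcgKO with IFNγ, FcgKO unstimulated, WT with IFNγ and WT unstimulated, with no overlap between neighbours. The genotype call was kept under all 15 alternative settings, with a log2 difference between -1.80 and -1.42 with IFNγ and between -1.96 and -1.40 unstimulated.

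Markers of another cell type moved with the same contrast. Of 10 mast cell and basophil markers, 9 had a named probe (none for Kit). With IFNγ, 7 of 9 were called lower in FcgKO (median log2 -0.77), against 1.47% of all probes. Unstimulated, 5 of 9 were called lower (median -0.67), against 0.479% of all probes. Of the 9, 1 had a positive log2 difference with IFNγ and 0 unstimulated. Cma1, a mast cell chymase, measured 252 and 302 in FcgKO with IFNγ against 582 and 611 in WT with IFNγ, and 238 and 302 in unstimulated FcgKO against 537 and 646 in unstimulated WT. The summed intensity of the 9 was 1892 and 2321 in FcgKO with IFNγ, 1728 and 1943 in unstimulated FcgKO, 3567 and 3273 in WT with IFNγ and 2767 and 3009 in unstimulated WT. Ms4a2, the β chain of the IgE receptor, was under the array median on all 8 arrays. The unstimulated count of 5 became 2 when FcgKO unstimulated replicate 1 was left out, and 3 when FcgKO unstimulated replicate 2 or WT unstimulated replicate 1 was. With IFNγ against unstimulated, 1 of the 9, Hdc, was called, and it was higher in both genotypes. Hdc averaged 519 with IFNγ against 232 unstimulated in FcgKO, and 528 against 235 in WT. A large part of the rise of the sum with IFNγ is therefore Hdc. The median log2 difference of the 9 was 0.01 in FcgKO and 0.11 in WT. H2-M2 was lower with IFNγ. The part of these cells in the H2-M2 result was not tested, and in bulk RNA fewer cells of a type and less RNA per cell cannot be told apart.

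**Figure D4:**
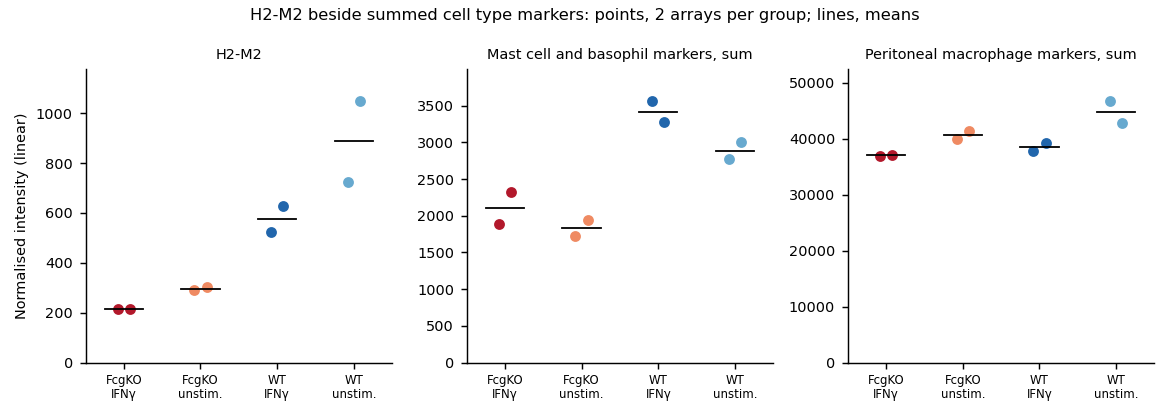
H2-M2 (left), the sum of 9 mast cell and basophil markers (middle) and the sum of 8 peritoneal macrophage markers (right), as normalised linear intensity on each array from 0, with lines for group means. H2-M2 and the mast cell sum are both lower on all 4 FcgKO arrays. With IFNγ, H2-M2 is lower in both genotypes. The mean mast cell sum is higher with IFNγ, and a large part of that rise is Hdc.

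Some macrophage markers also moved. The sum of the 8 was 36899 and 37139 in FcgKO with IFNγ, 39994 and 41476 in unstimulated FcgKO, 37853 and 39235 in WT with IFNγ and 46797 and 42750.1 in unstimulated WT. Most of this sum is Lyz2, which stood at 20466 to 22479 and at the top of the scale on 5 of the 8 arrays, and Cd14, at 6325 to 16146, so it says little about the other 6 markers. With IFNγ, Gata6, a factor of resident peritoneal macrophages, fell and Timd4, a receptor of the same cells, rose, in both genotypes. In all, 1 of 8 was called higher and 1 lower in FcgKO (4.60% and 5.75% of all probes), and 2 higher and 4 lower in WT (4.97% and 6.56%). Against WT, Timd4 was called lower in FcgKO with IFNγ (log2 -0.85, limma adjusted p = 0.042) and unstimulated (-0.99, adjusted p = 0.044), and Mertk with IFNγ. Mertk measured 943 and 991 in FcgKO with IFNγ against 1612 and 1504 in WT with IFNγ (limma adjusted p = 0.0078). The Mertk call was not examined under the other settings. The Timd4 calls were lost in 5 leave-one-out fits each (highest adjusted p = 0.31 and 0.38), without background correction (0.11 and 0.18), with IFNγ also at an offset of 16 (0.058), and unstimulated also with 1 probe per gene (0.050) and with only the compared arrays in the fit (0.065). Their part in the class I results was not tested. In the genotype comparisons 0 of the 4 B cell, 7 T and NK cell, 6 dendritic cell and 5 neutrophil and eosinophil markers with a probe were called by limma, and at an unadjusted p below 0.05 there were 0, 1, 2 and 1 with IFNγ and 1, 0, 0 and 1 unstimulated, in the order given. In the IFNγ response, 1 of these, the T and NK cell gene Gzma, was called, lower with IFNγ in FcgKO, and it was under the array median on all arrays. Of the 4 B cell markers, 0 had a positive FcgKO minus WT difference in either condition. Their median log2 difference was -0.22 with IFNγ and -0.24 unstimulated, and the part of B cells in the class I results was not tested.

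By the correlation of log2 values over the 8 arrays, among 936 probes with a named gene and a range of at least 1, the genes most like H2-M2 were Flrt3 (r = 0.984), Gsta3 (0.974), Il4i1 (0.973), Ly9 (0.972) and Mmp9 (0.971). Mmp9, a matrix metalloproteinase, averaged 726 ± 93.8 in FcgKO with IFNγ, 1070.2 ± 73.4 in unstimulated FcgKO, 3056 ± 266 in WT with IFNγ and 4577 ± 257 in unstimulated WT (SD, n = 2 each). Gsta3, a glutathione transferase, averaged 168 ± 15.5, 258 ± 4.88, 442 ± 9.9 and 675 ± 15.4 in the same 4 groups. Flrt3 averaged 126 ± 6.29, 157 ± 1.75, 224 ± 3.05 and 291 ± 3.82. All 3 follow the order of groups seen for H2-M2, which is what the rule selects. Unlike H2-M2, Ly9 was not called for its IFNγ response in either genotype. Its log2 difference was -0.09 in FcgKO (limma adjusted p = 0.80) and -0.32 in WT (adjusted p = 0.12). The WT response of Ly9 was called in the limma fit with a replicate block (adjusted p = 0.033). The genes most like Nlrc5 were Cxcl9 (r = 0.9994), 1110038F14Rik (0.9992), Gbp2 (0.9989), Gbp3 (0.9985) and Irgm2 (0.998). Cxcl9 encodes a T cell chemokine and Gbp2, Gbp3 and Irgm2 encode GTPases of the interferon response. The points are 8 arrays in 4 groups, and the correlations are descriptions.

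Among the other genes of the route, 42 were listed and 35 had a named probe. Of these, 12 were called higher and 1 lower with IFNγ in FcgKO (median log2 0.08), and 11 higher and 2 lower in WT (median 0.11). Of all probes, 4.60% were called higher and 5.75% lower in FcgKO, and 4.97% and 6.56% in WT. The median over all probes was -0.01 in each genotype. The FcgKO total of 13 called was 8 without FcgKO unstimulated replicate 2 and 8 without FcgKO IFNγ replicate 2. The 5 immunoproteasome genes, whose subunits and activator change which peptides are cut, rose in both genotypes: Psmb9 by 2.47 in FcgKO and 2.46 in WT, Psmb8 by 1.77 and 1.72, Psmb10 by 1.49 and 1.70, Psme1 by 0.78 and 1.05 and Psme2 by 0.66 and 0.76. The gene of the tapasin-related protein, Tapbpl, which edits the peptides that heavy chains carry, had the largest difference of the list, 2.82 (adjusted p = 3.8e-09) in FcgKO and 2.54 (adjusted p = 9.7e-09) in WT. It measured 1165 and 1155 in FcgKO with IFNγ against 205 and 186 in unstimulated FcgKO, and 1032 and 1119 in WT with IFNγ against 228 and 199.5 in unstimulated WT. Ide, a protease that degrades insulin, had the smallest, -0.33 in FcgKO and -0.35 in WT, called in both, with calls that were lost with a background offset of 16 (adjusted p = 0.11 and 0.082) and in 2 leave-one-out fits in FcgKO and 3 in WT.

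**Figure D5:**
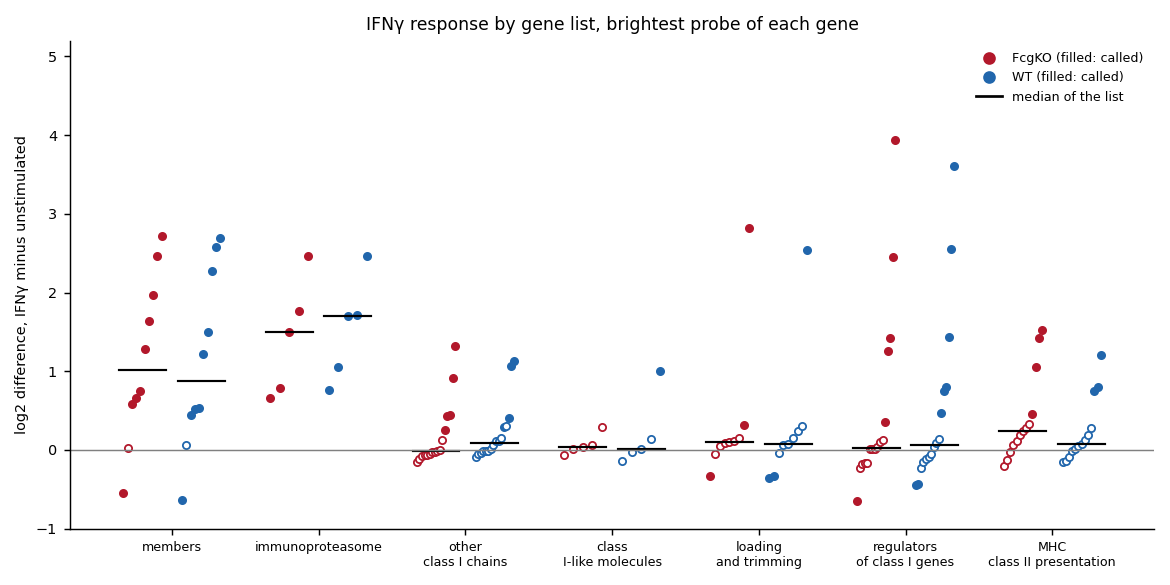
Log2 difference, IFNγ minus unstimulated, of the brightest probe of each gene in 7 gene lists, in FcgKO (red) and WT (blue), with filled points for called genes and a bar at each list's median. The immunoproteasome genes lie at 0.66 to 2.47 with all 5 filled, and most of the other class I chains lie near 0.

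Of 16 other class I chain genes with a probe, 5 were called higher in FcgKO and 4 in WT, against 4.60% and 4.97% of all probes. In both genotypes 0 were called lower. The log2 difference was positive for 7 of the 16 in FcgKO and 10 in WT. H2-Q7 (1.33 in FcgKO and 1.14 in WT) and H2-Q8 (0.92 and 1.07) moved most among them. A further 6 of the 16 were under the array median on all 8 arrays. Of 5 class I-like genes, 0 were called higher in FcgKO by limma (1 at an unadjusted p below 0.05, against 5023 of all 25697 probes) and 1 in WT. It was Cd1d1, which presents lipids to NKT cells. It measured 550.2 and 464 in FcgKO with IFNγ against 516 and 471 in unstimulated FcgKO, and 951 and 1039.8 in WT with IFNγ against 483 and 543 in unstimulated WT. The WT response was 1.01 (adjusted p = 4.7e-05) and the FcgKO response 0.04, and the test of their difference gave -0.97 with an adjusted p of 0.059. It was called in the limma fit with a replicate block (-0.97, adjusted p = 0.034) and in that without FcgKO IFNγ replicate 1 (-1.10, adjusted p = 0.012).

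In the comparison of genotypes with IFNγ, 1 of the 35 other pathway genes was called higher and 2 were called lower in FcgKO. Of all probes, 1.13% were called higher and 1.47% lower. Cd1d1 was lower by limma (log2 -1.03, SE 0.10, adjusted p = 2.7e-04). H2-Q8 was lower, at 359 and 316 in FcgKO against 428 and 489.7 in WT (log2 -0.48, adjusted p = 0.014). Fcgrt, the neonatal Fc receptor, a class I-like chain that pairs with β2-microglobulin, was higher, at 465 and 558 in FcgKO against 348 and 392 in WT (log2 0.50, adjusted p = 0.027). The calls of H2-Q8 and Fcgrt were lost without FcgKO IFNγ replicate 2 (adjusted p = 0.13 and 0.20), without WT IFNγ replicate 2 (0.16 and 0.069) and with an offset of 16 (0.080 and 0.094), and that of Fcgrt also without WT IFNγ replicate 1 (0.25), without background correction (0.064) and with only the compared arrays in the fit (0.057). Unstimulated, 0 of the 35 were called by limma, and 1 was called in the fit with a replicate block. At an unadjusted p below 0.05 there were 5, against 1993 of all 25697 probes.

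Regulators of class I genes were examined as a list, of which 16 had a named probe. With IFNγ, 5 were called higher and 1 lower in FcgKO (4.60% and 5.75% of all probes), and 6 higher and 2 lower in WT (4.97% and 6.56%). Irf1, the interferon-induced factor that binds the interferon element of class I promoters, had the largest difference, 3.94 (adjusted p = 3.1e-10) in FcgKO and 3.61 (adjusted p = 7.7e-10) in WT. It measured 15547 and 16987 in FcgKO with IFNγ against 994 and 1198 in unstimulated FcgKO, and 16471 and 17567 in WT with IFNγ against 1373 and 1472 in unstimulated WT. Ifngr1, a chain of the IFNγ receptor, had the smallest, -0.64 in FcgKO and -0.45 in WT, called in both. Between the genotypes, 1 of 16 was called with IFNγ, lower in FcgKO, against 1.47% of all probes. Unstimulated, 0 were called, and 1 was called with a replicate block. At an unadjusted p below 0.05 there were 3 unstimulated, against 1993 of all 25697 probes. The gene called with IFNγ was Rela, a subunit of NF-kB. It measured 1724 and 1458 in FcgKO with IFNγ against 2707 and 2559.8 in WT with IFNγ (log2 -0.74, SE 0.09, adjusted p = 0.0014). Unstimulated, Rela measured 1655 and 1454 in FcgKO and 1543 and 1612 in WT. The limma test of the difference of its responses gave -0.72 with an adjusted p of 0.13. Without FcgKO IFNγ replicate 1 that difference was -0.84. Without background correction the list's count with IFNγ was 2, both lower.

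The MHC class II route, which shows peptides from outside the cell to CD4 T cells, was set beside the class I members. Of 13 genes with a probe, 4 were called higher in FcgKO and 3 in WT, against 4.60% and 4.97% of all probes. In both genotypes 0 were called lower, and the medians were 0.24 and 0.08. The largest difference was that of H2-DMa, a chain of the class II peptide editor, at 1.53 in FcgKO and 1.21 in WT. The smallest were H2-Eb2 in FcgKO (-0.21) and H2-DMb2 in WT (-0.15), neither called. With IFNγ, H2-DMa (log2 0.49, limma adjusted p = 0.033) and its partner H2-DMb1 (0.49, adjusted p = 0.039) were higher in FcgKO than in WT. These were 2 of 13 genes, against 1.13% of all probes called higher. That count of 2 was 0 without WT IFNγ replicate 1, without FcgKO IFNγ replicate 2, without background correction and with an offset of 16. It was 1 without each of the other IFNγ replicates, 1 without either FcgKO unstimulated replicate, and 1 with only the compared arrays in the fit. With a replicate block 4 genes were called, 2 higher and 2 lower, and H2-Eb2 was 1 of the lower ones (log2 -0.36, adjusted p = 0.014). No class II gene was called unstimulated, with 1 at an unadjusted p below 0.05 (1993 of all 25697 probes). The difference between the class I and the class II lists was not tested.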

How the data were processed

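RNA was measured on 8 bead arrays, and groups and replicate numbers were taken from the sample titles. The authors deposited linear intensity values. Per the submitters' processing notes GenomeStudio was used. Its version and the normalisation are not given in the sources used here. Sorted by size, the 8 columns agree to within 0.0058 on the log2 scale, so the deposited intensities were already normalised between arrays. They run from 82.1 to 22479 and were not background-subtracted. The other deposited file holds 16 value columns that could not be assigned to samples, so it was not used and no detection p was available per sample. The array median stands for the lower end of the scale.

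Intensities were background-corrected (normexp, offset 50, which understates the fold changes of dim probes), taken to log2 and fitted per probe by lmFit and eBayes of limma (version 3.58.1, in R 4.3.3, tables read with version 1.17.8 of data.table) with 1 mean per group over all 8 arrays, giving 4 residual and 7.05 prior degrees of freedom. Lists use the brightest probe of each gene. Of 25697 probes, 23978 had 1 symbol and 1719 none. Arrays have no read depth, and their number limits the precision. All members were named. From each list, the genes with the largest and smallest IFNγ difference and those called between genotypes were named, with 5 genes most like H2-M2 and 5 most like Nlrc5. The other genes were named after their values were seen, to spell out counts. The members and lists were chosen with earlier results of these data known. The fit was tested on simulated data. Alternatives were no background correction, an offset of 16, repeated quantile normalisation, a filter on dim probes, 1 probe per gene, only the compared arrays, a replicate block and each array left out.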

Additional observations from a re-analysis of the deposited data

How the results depend on the processing

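Of 75 results for single class I probes (15 probes in 5 comparisons), 24 were called, 21 of them kept the call under all 15 settings that could be run for them, and 3 lost it under some, those of H2-M3 in WT and of H2-M2 with IFNγ in each genotype, with the values given in the report. None reversed and no uncalled one became called. A probe left out by the filter on dim probes or by keeping 1 probe per gene has no value there. Counts over all probes moved more. Unstimulated FcgKO against WT had 186 called probes, against 117 without background correction (37 higher and 80 lower), 117 with an offset of 16 (32 and 85) and 66 to 245 with an array left out. With IFNγ the count was 667, against 407 with an offset of 16 (156 and 251) and 304 to 754 with an array left out. The IFNγ response had 2658 called probes in FcgKO (1594 to 2859 with an array left out) and 2963 in WT (1858 to 3037). The difference of responses had 11, against 3 without background correction, 5 with an offset of 16, 3 with 1 probe per gene and 3 to 58 with an array left out. With a replicate block, 319 probes were called in the unstimulated comparison (128 higher and 191 lower), 920 with IFNγ and 33 for the difference of responses. The IFNγ response then had 2937 called probes in FcgKO and 3229 in WT. No call of a class I member changed with the block. Over all probes, deviations of same-numbered arrays correlated with r between -0.03 and 0.20. The B cell marker sum, however, was higher on replicate 1 than on replicate 2 in each group. It was 1499 and 1179 in FcgKO with IFNγ and 1766 and 1277 in unstimulated FcgKO. WT gave 2202 and 1470 with IFNγ and 2362 and 1582 unstimulated. Whether the numbers pair the samples was not tested, and the labels do not say. Where a group kept 1 array, it is assumed to vary like the other groups. The causes of these changes were not tested. In simulated data of the main design, 49 of 50 probes changed 2-fold and 50 of 50 changed 4-fold were called.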

Other observations

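The spacing of the X2 and Y cores shared by B2m, H2-K1, H2-D1 and H2-M3 was looked up in all promoter windows after those 4 had been read. It was found on the gene's strand in 16 windows, of which 13 belong to genes with a named probe. With IFNγ, 3 of the 13 were called higher in each genotype, and these were H2-D1, H2-K1 and H2-M3. Of all probes, 4.60% were called higher in FcgKO and 4.97% in WT. None of the 9 other genes outside the class I members was called higher. Among them, BC051142, Hspa14, Ibsp, Slc8a3 and Znrd1as had group means of 88 to 111, about the array median of 103 and so near the lower end of the scale. Nfe2l1, a transcription factor of proteasome genes, had a log2 difference of -0.10 in FcgKO and 0.08 in WT, and Xpnpep1, an aminopeptidase, had -0.28 and -0.01. Per1, a clock gene, had -0.07 in FcgKO and was called lower in WT (-0.26, limma adjusted p = 0.023). As the members chose the motif, this is a description with no test.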
